A study of Mus musculus with 16 samples.

Results

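The olfactory receptor genes of mouse chromosome 17 were examined across 16 expression arrays of sorted olfactory mucosa cells. Members were the features whose array identifier placed them on chromosome 17 and whose symbol was Olfr followed by a number alone, with Olfr127 left out. This rule used no measured value and gave 48 genes, each with 1 feature, among 1080 tested olfactory receptors and 19572 tested features in all.

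Olfactory receptors are G protein-coupled receptors, and a mature olfactory sensory neuron (OSN) normally transcribes 1 of them from 1 allele. The level of a receptor in a pool of neurons therefore follows both the number of neurons that chose it and the amount of its mRNA in each. Receptor genes lie in clusters, and one of the clusters of mouse chromosome 17 adjoins the major histocompatibility complex (MHC), whose H2 genes encode proteins that present peptides to T cells. Odorant binding raises cyclic AMP through Gnal and Adcy3 and opens a cyclic nucleotide-gated channel, and sustained activity raises S100a5, a calcium-binding protein of OSNs.

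The animals were C57BL/6 mice of both sexes, 7 to 12 weeks old, that carried S100a5-tauGFP, an allele in which S100a5 activity drives a fluorescent protein. Each of the 24 mice spent 40 h alone in a chamber supplied with clean air at 3.1 L per min. From 26 h on, 12 mice received a mixture of undecanal and bourgeonal, a fatty and an aromatic aldehyde, for 10 s every 20 min, and the other 12 received filtered air as vehicle. Olfactory mucosa from 3 mice made each of 8 pools, and every pool was dissociated and sorted into 2 fractions, so that 4 groups held 4 arrays each: odor or vehicle, titled GFP− or titled GFP+. Each replicate is a different pool of animals, and the fractions are whole sorted populations, not purified OSNs.

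The cell type characteristic of all 16 arrays states the opposite GFP status to the title. The titles were kept as names, and every fraction difference is titled GFP− minus titled GFP+. S100a5 itself, whose activity drives the reporter, was higher in the arrays titled GFP−. Its log2 signals in vehicle pools were 16.44, 16.30, 16.46 and 16.29 in titled GFP− and 15.51, 15.44, 15.33 and 15.22 in titled GFP+, a difference of 1.00 ± 0.20 (SE, n = 4 arrays a group, limma adjusted p = 0.002). In odor pools the difference was 1.31 ± 0.20 (adjusted p = 0.00016). No S100a5 array of one fraction overlapped the other in either treatment, so S100a5 went against the titles in all 8 pools. Omp, a marker of mature OSNs, differed by 0.12 ± 0.10 in vehicle (adjusted p = 0.46) and by 0.12 ± 0.10 in odor pools (adjusted p = 0.42).

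The label of MHC linkage was set against the order of genes in the RefSeq table. A block of 44 members, from Olfr90 to Olfr136, lay beyond the H2 genes, with only 2 measured non-receptor genes inside it, Ubd and H2-M3. The remaining 4 members, Olfr55, Olfr239, Olfr1564 and Olfr63, lay on the far side of a stretch of 175 measured non-receptor genes that included 34 H2 features, H2-K1, H2-Aa and H2-D1 among them. No tested receptor lay in that stretch. By order the 44 adjoin the class I end of the complex, whereas the 4 are separated from them by the whole H2 region.

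Names of the MOR scheme, which groups receptors by sequence likeness, stood among the RefSeq synonyms of 46 members and gave 8 families. MOR256 held 17 members, MOR218 held 9, MOR263 held 7, MOR156 held 5, MOR250 and MOR267 held 3 each, and MOR121 and MOR249 held 1 each. Olfr111 and Olfr1564 carried no such name. Family relatives can be close in sequence, and how far a probe set of one member takes up mRNA of another was not tested.

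RefSeq (GRCm38.p6) gave a window before the annotated start for 34 of the 48 members. The 250 bases upstream of the start are shown for 4 receptors of the block: Olfr110 and Olfr101 had the largest differences towards titled GFP−, Olfr111 is the neighbour of Olfr110 with a difference of the other sign, and Olfr124 is a broadly tuned receptor. They are Olfr110 (chr17:37492218-37492467, plus strand), Olfr111 (chr17:37529707-37529956, plus strand), Olfr101 (chr17:37300485-37300734, minus strand) and Olfr124 (chr17:37804819-37805068, plus strand). Each is written 5′ to 3′ on the strand of its gene, and capitals mark the single match to TAATNA, a homeodomain-type motif.

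Olfr110: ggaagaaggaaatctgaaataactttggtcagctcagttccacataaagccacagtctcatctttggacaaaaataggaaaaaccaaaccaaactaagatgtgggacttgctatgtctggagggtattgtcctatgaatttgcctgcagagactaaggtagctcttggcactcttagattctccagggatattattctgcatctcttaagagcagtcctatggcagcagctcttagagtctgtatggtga

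Olfr111: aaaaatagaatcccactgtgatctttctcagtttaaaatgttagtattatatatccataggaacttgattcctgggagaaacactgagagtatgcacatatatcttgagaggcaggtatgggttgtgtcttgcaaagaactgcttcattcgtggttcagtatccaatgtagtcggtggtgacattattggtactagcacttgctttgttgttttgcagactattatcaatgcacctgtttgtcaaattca

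Olfr101: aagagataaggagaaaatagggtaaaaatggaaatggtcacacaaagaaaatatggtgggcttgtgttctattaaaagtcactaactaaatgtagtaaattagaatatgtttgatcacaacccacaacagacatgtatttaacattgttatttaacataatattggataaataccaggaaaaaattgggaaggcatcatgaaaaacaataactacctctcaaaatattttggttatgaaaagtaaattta

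Olfr124: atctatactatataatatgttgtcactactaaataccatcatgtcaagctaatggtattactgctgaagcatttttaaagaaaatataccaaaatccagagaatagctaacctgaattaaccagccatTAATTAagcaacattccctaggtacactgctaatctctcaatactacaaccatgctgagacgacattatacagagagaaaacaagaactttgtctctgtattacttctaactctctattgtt

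Searched on both strands, TAATNA matched 17 of the 34 member windows (50.0%), 64.0% of 944 receptor windows and 24.3% of all 32851 windows. The Olf/Ebf-type motif CCCNNGGG matched 3 of 34 (8.82%), those of Olfr98, Olfr99 and Olfr108, against 2.75% of receptor windows and 11.8% of all windows. Olfr110 and Olfr111, neighbours in the block whose fraction differences had opposite signs, held neither. In 22 of the 34 windows, and 72.6% of receptor windows, the annotated start is the start codon itself, so those windows need not hold the promoter. The 4 windows shown are among the 12 that begin elsewhere.

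Array background was taken as the 95th percentile of 23 background probe sets graded by GC content, 6.87 to 7.41 log2 units over the arrays. By it, 42 of the 48 members were above background on all 4 arrays of at least 1 group and 25 on all 16 arrays, while Olfr108 and Olfr761 were above it on none. Against the higher level of 5222 negative control probe sets (9.14 to 10.9), 23 members passed on all 4 arrays of a group. One array stood apart: the median member signal was 8.07 on odor titled GFP+ replicate 1 and 8.98 to 9.25 on the other 3 of its group.

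In vehicle pools, receptors of this chromosome lay on both sides of the sort. By limma at an adjusted p under 0.05, 15 of 48 members were higher in titled GFP− and 12 were lower, together 56.2%, where 16.9% of all features (7.05% higher, 9.82% lower) and 53.9% of all receptors (33.3% higher, 20.6% lower) were called. The share called was thus near that of receptors in general. The median member difference was 0.01, beside 0.43 over all receptors and 0.13 over all features, with a range of −8.01 to 5.51. It was also 0.01 with members below background in one fraction set at their bounds. Fewer cells that express a receptor and less of its mRNA per cell cannot be told apart in such bulk samples. The arrays of the 2 fractions did not overlap for 25 members (52.1%), against 53.1% of receptors and 23.4% of features.

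Several counts moved with the scale between arrays. With each array centred on the median of all receptors, 11 members were higher and 11 lower in vehicle pools and the member median was −0.26; centred on the median of tested features, 16 were higher and 11 lower with a median of 0.42. These centrings moved the median of all features from 0.13 to −0.14 and 0.54. Without vehicle replicate 4 the member median was −0.08. The sign of the member median therefore depended on the scale and on 1 pool.

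**Figure D1:**
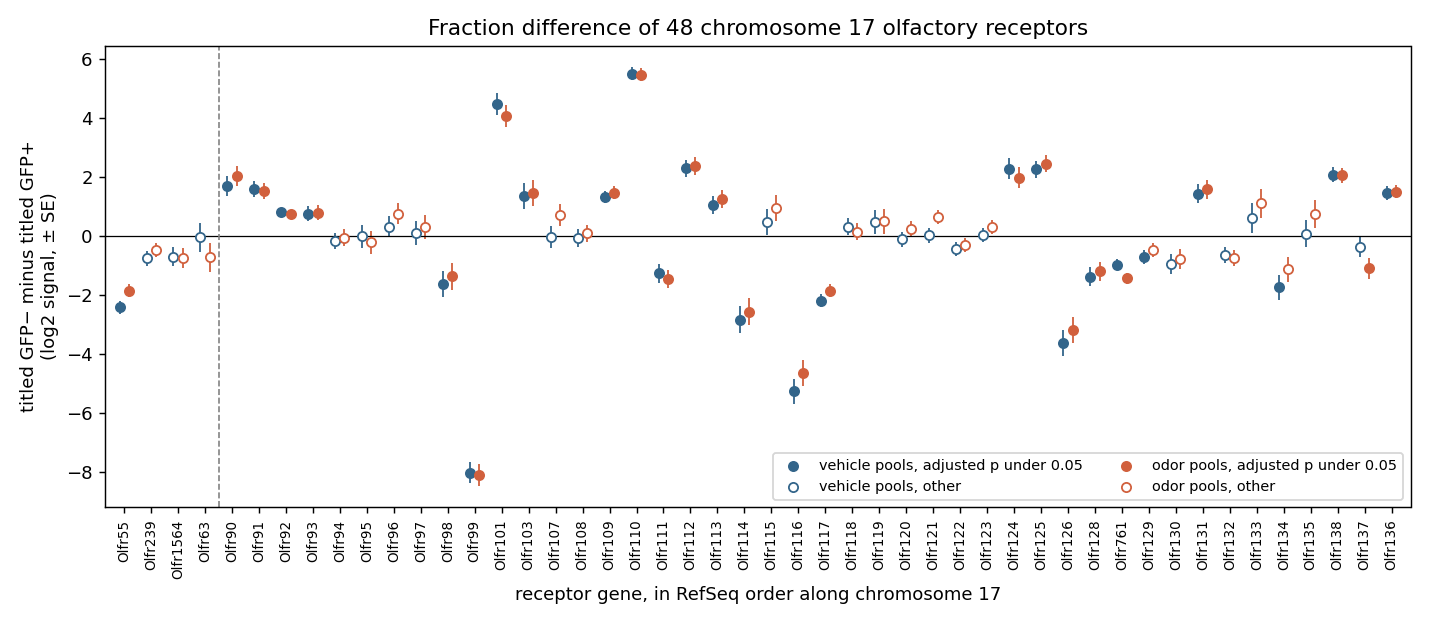
Fraction difference (titled GFP− minus titled GFP+, log2 signal ± SE from the limma model) of the 48 receptors in their order along chromosome 17, in vehicle pools (blue) and odor pools (orange), filled where the adjusted p was under 0.05; the dashed line marks the stretch of 175 non-receptor genes. Values run from −8.01 for Olfr99 to 5.51 for Olfr110 in vehicle pools, and higher and lower receptors are interspersed along the block.

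Olfr110, the only MOR249 member, showed the largest difference towards titled GFP−. Its log2 signals in vehicle pools were 12.48, 13.01, 13.33 and 12.81 in titled GFP− and 7.17, 7.28, 7.70 and 7.45 in titled GFP+. All 4 titled GFP− arrays were far above all titled GFP+ arrays, of which 3 of 4 exceeded background. The difference was 5.51 ± 0.23 (adjusted p = 7.8e-11), a 45.5-fold higher measured signal. No titled GFP+ array exceeded the negative controls, so this fold is taken against a signal near background.

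Olfr101, a MOR250 receptor, followed. Its signals were 11.55, 12.72, 12.40 and 11.91 in titled GFP− and 6.84, 8.73, 7.56 and 7.54 in titled GFP+. Again the groups were well separated, with the second titled GFP+ array the highest and the first the lowest of its group. The difference was 4.48 ± 0.38 (adjusted p = 2.7e-07), or 22.3-fold, with 3 of 4 titled GFP+ arrays above background and none above the negative controls.

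Olfr112 and Olfr125, of the MOR218 family, and Olfr124, of MOR256, differed by similar amounts and were above background on every array. Olfr112 read 13.52, 13.19, 12.54 and 13.35 in titled GFP− against 10.81, 10.94, 10.97 and 10.69 in titled GFP+, a difference of 2.30 ± 0.30 (adjusted p = 3.2e-05). Olfr124 is MOR256-3, a receptor known from other work for responding to many unlike odorants. It read 11.40, 12.17, 11.91 and 12.18 against 9.36, 9.66, 10.14 and 9.33, a difference of 2.29 ± 0.35 (adjusted p = 0.00017). Olfr125 read 10.28, 10.73, 10.02 and 10.69 against 7.54, 7.97, 8.5 and 8.62, a difference of 2.27 ± 0.29 (adjusted p = 2.2e-05). In each of these receptors the lowest titled GFP− array stayed above the highest titled GFP+ array.

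Olfr138, Olfr90 and Olfr91, all MOR256, completed the 8 largest. Olfr138 was 2.09 ± 0.26 higher (adjusted p = 1.7e-05), with 2 of 4 titled GFP+ arrays above background. Olfr90 was 1.71 ± 0.34 higher (adjusted p = 0.002) and Olfr91 was 1.60 ± 0.28 higher (adjusted p = 0.00069), each with 3 of 4 titled GFP+ arrays above background. All 4 pools gave a higher titled GFP− signal for each of the 3, from 0.54 in pool 4 to 2.98 in pool 1 for Olfr90.

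Olfr99, of the MOR156 family, had the largest difference of all members and lay on the other side. Its signals were 5.82, 4.92, 5.47 and 6.95 in titled GFP−, below background on all 4 arrays, and 14.54, 13.35, 13.51 and 13.78 in titled GFP+. It was at least 98.2-fold higher in titled GFP+ (adjusted p = 2.6e-10), a bound set by the background of the dimmer arrays. In the block Olfr99 stands next to Olfr101, which was 22.3-fold higher in the opposite fraction.

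Olfr116, of MOR218, came next among the lower receptors. It read 8.42, 8.61, 7.55 and 9.62 in titled GFP− and 14.15, 13.66, 13.22 and 14.19 in titled GFP+, above background on every array. The groups were separated by more than the whole spread within either. The signal was 38.2-fold higher in titled GFP+, a difference of −5.26 ± 0.43 (adjusted p = 2.1e-07).

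Olfr126 and Olfr114, both MOR218, were below background on all 4 titled GFP− arrays. Olfr126 read 6.54, 5.36, 6.03 and 6.65 against 10.04, 9.58, 9.63 and 9.81 in titled GFP+, at least 6.01-fold higher there (adjusted p = 1.5e-05). Olfr114 read 5.72, 5.30, 5.37 and 6.07 against 7.93, 7.97, 8.6 and 9.26, at least 2.40-fold higher (adjusted p = 0.00029). Both thus differed from Olfr112 and Olfr125 of their own family in the direction of the sort.

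Olfr55, of the MOR267 family on the far side of the H2 genes, was bright in both fractions. It read 13.52, 13.13, 12.69 and 13.61 in titled GFP− and 15.88, 15.80, 15.45 and 15.49 in titled GFP+, a difference of −2.41 ± 0.21 (adjusted p = 4e-07). Its groups did not overlap, and it was the only one of the 4 members there that passed the test. Olfr239 differed by −0.75 ± 0.25 (adjusted p = 0.054), Olfr1564 by −0.69 ± 0.33 (adjusted p = 0.17) and Olfr63 by −0.04 ± 0.50 (adjusted p = 0.96).

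The last of the 8 lowest were Olfr117 and Olfr134, of MOR256, and Olfr98, of MOR156. Olfr117 differed by −2.19 ± 0.22 (adjusted p = 1.5e-06) in all 4 pools, from −2.78 to −1.62. Olfr134 was below background on all titled GFP− arrays and at least 2.07-fold higher in titled GFP+ (adjusted p = 0.010); this call was lost without vehicle replicate 3, at an adjusted p of 0.0508, and without vehicle replicate 1, at an adjusted p of 0.065. Olfr98 differed by −1.62 ± 0.45 (adjusted p = 0.020), a call lost without vehicle replicate 2 (−1.5, adjusted p = 0.0885) and without vehicle replicate 3 (−1.30, adjusted p = 0.126).

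**Figure D2:**
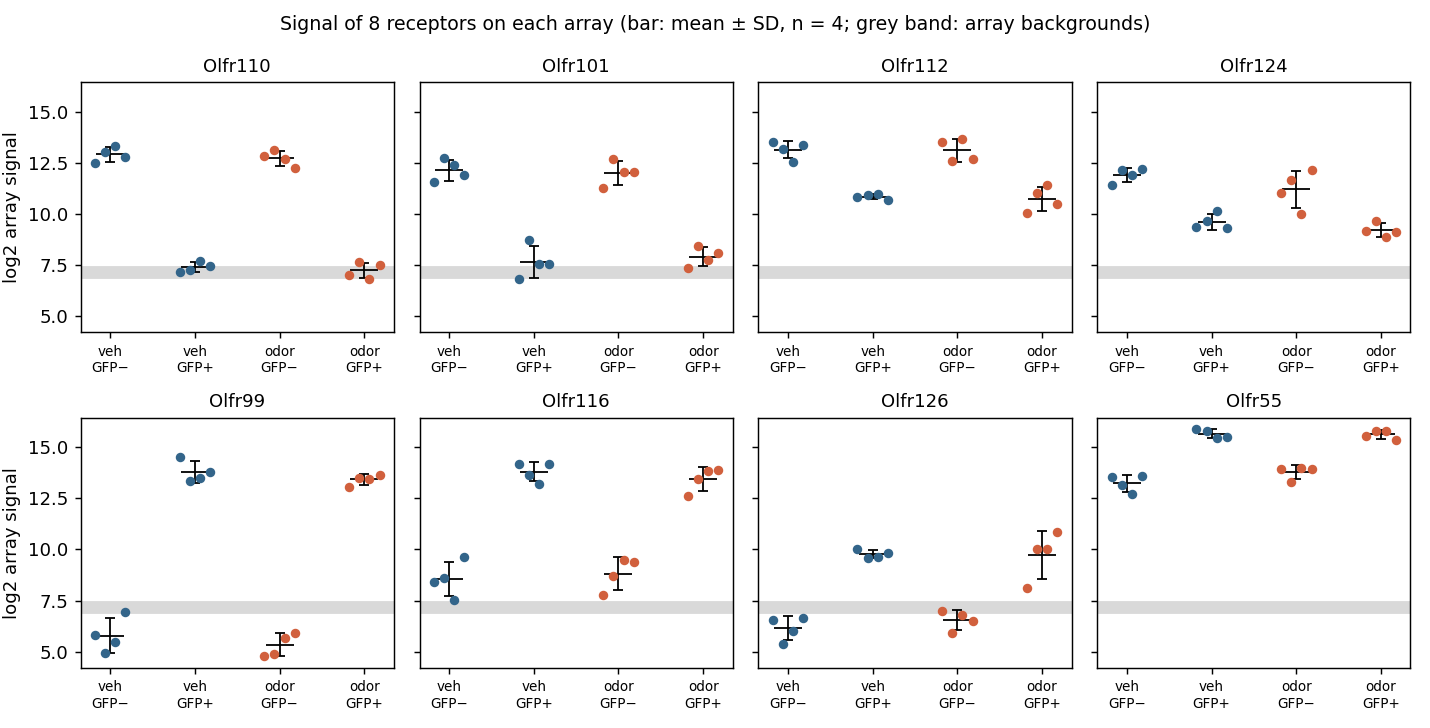
Log2 signal of 8 receptors on each of the 16 arrays, by group (veh, vehicle; odor, undecanal and bourgeonal), with the mean ± SD of 4 arrays and the range of array backgrounds (6.87 to 7.41) as a grey band. The upper receptors are brighter in the arrays titled GFP− and the lower ones in those titled GFP+, in both treatments.

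Counts were then taken by family in vehicle pools, where 53.9% of all receptors and 16.9% of all features were called. All 3 MOR250 receptors were higher in titled GFP− in vehicle pools: Olfr101, Olfr103 (1.37 ± 0.45, adjusted p = 0.049) and Olfr109 (1.33 ± 0.21, adjusted p = 0.0002). The call of Olfr103 was lost without any 1 of the 4 vehicle pools, with an adjusted p of 0.231 without replicate 1, and also without odor replicate 2 or 4 and with arrays centred on the receptor median (1.10, adjusted p = 0.0984). Of the 9 MOR218 receptors, 8 passed: Olfr112, Olfr113 and Olfr125 were higher, and Olfr114, Olfr116, Olfr126, Olfr128 and Olfr761 were lower. Olfr128 and Olfr761 were below background in both vehicle groups, so their order carries no fold. The call of Olfr113 (1.06 ± 0.31, adjusted p = 0.028) was lost without vehicle replicate 1 (adjusted p = 0.127), replicate 2 (0.108) or replicate 4 (0.116) and with arrays centred on the receptor median (0.79, adjusted p = 0.162), and that of Olfr128 (−1.37 ± 0.32) without vehicle replicate 1 (adjusted p = 0.0572).

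MOR256, the largest family, had 10 of 17 members past the test (58.8%, near the 53.9% of all receptors). Of these, 8 were higher (Olfr90, Olfr91, Olfr92, Olfr93, Olfr124, Olfr131, Olfr136 and Olfr138) and 2 lower (Olfr117 and Olfr134). Olfr90, Olfr91, Olfr92, Olfr93, Olfr134 and Olfr138 were above the negative controls on no array. Olfr131 differed by 1.44 ± 0.32 (adjusted p = 0.005) and Olfr136 by 1.47 ± 0.23 (adjusted p = 0.0002). The 2 with the smallest differences, Olfr92 (0.81 ± 0.14, adjusted p = 0.00043) and Olfr93 (0.77 ± 0.25, adjusted p = 0.047), lost their calls with arrays centred on the receptor median, at adjusted p of 0.263 and 0.581. Olfr93 also lost it without vehicle replicate 1 (0.47, adjusted p = 0.281) or replicate 2 (0.63, adjusted p = 0.203), without odor replicate 2, 3 or 4, and with the pool as a block (adjusted p = 0.0838).

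Few MOR263 differences passed. Olfr129 alone of its 7 members did so in vehicle pools (−0.71 ± 0.23, adjusted p = 0.041), and the family's range was −0.71 to 0.48. That call was lost without vehicle replicate 1 (adjusted p = 0.0992), replicate 2 (0.183) or replicate 3 (0.17), without odor replicate 3 (0.0528) and with the pool as a block (0.0538). It was also lost with each array centred on its tested-feature median (−0.31, adjusted p = 0.213) or its receptor median (−0.98, adjusted p = 0.061). Of 5 MOR156 members, Olfr98 and Olfr99 were lower, and Olfr97, Olfr107 and Olfr108 did not pass, the last below background on every array. Olfr96, the only MOR121 member, differed by 0.33 ± 0.34 (adjusted p = 0.54). Olfr111, which carries no family name, was lower (−1.26 ± 0.31, adjusted p = 0.008), a call lost without vehicle replicate 2 (−1.18, adjusted p = 0.0521).

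**Figure D3:**
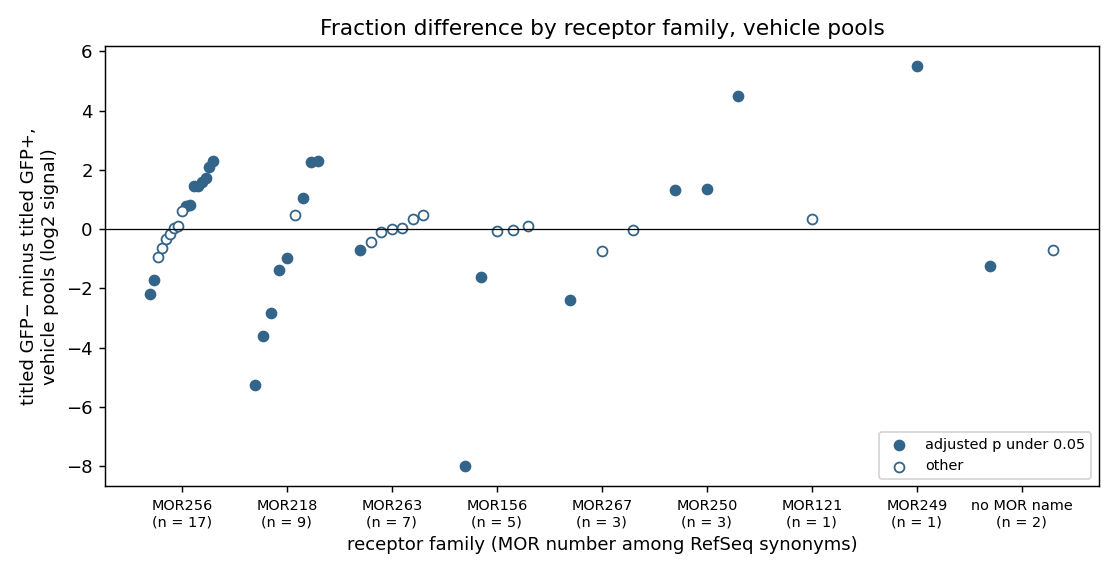
Fraction difference in vehicle pools (titled GFP− minus titled GFP+, log2 signal) of each member by MOR family, ordered by value within a family and filled where the adjusted p was under 0.05. MOR218 spans −5.26 to 2.30 and holds receptors called in both directions, MOR250 lies wholly above 0, and MOR263 stays between −0.71 and 0.48.

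Position in the block gave no single direction. Among its 43 pairs of adjacent members, both were called in 17 pairs in vehicle pools, with the same sign in 12 and opposite signs in 5. Adjacent means next in order among the members, and Olfr127, which was left out, is not counted in pairs or runs. The longest runs of one sign were Olfr90 to Olfr93 (higher) and Olfr126, Olfr128, Olfr761 and Olfr129 (lower), 4 receptors each. The first run was all MOR256 and the second MOR218 but for Olfr129. Olfr90 to Olfr93 were above the negative controls on no array, and Olfr128 and Olfr761 were below background in both vehicle groups. The vehicle calls of Olfr92, Olfr93, Olfr128 and Olfr129 were lost under some alternatives, as given above. Olfr110 and Olfr111, as well as Olfr113 and Olfr114, were adjacent and called in opposite directions. In odor pools both members were called in 18 pairs, 11 of the same sign and 7 of opposite signs.

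The sort of odor pools, which came from other animals, was compared next. By limma, 15 members were higher in titled GFP− and 11 were lower, together 54.2%, where 22.2% of all features (12.2% higher, 9.98% lower) and 56.5% of all receptors (37.6% higher, 18.9% lower) were called. The median difference was 0.29, beside 0.57 over all receptors and 0.14 over all features, and it was also 0.29 with such members at their bounds. Without odor replicate 4 it was 0.10. With arrays centred on the receptor median, 11 were higher and 13 lower with a member median of −0.18; centred on tested features, 21 were higher and 9 lower with a median of 0.59. The arrays did not overlap for 21 members (43.8%), against 53.6% of receptors and 24.5% of features.

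The same receptors headed each side. Olfr110 read 12.83, 13.12, 12.71 and 12.24 in titled GFP− and 7.01, 7.63, 6.83 and 7.5 in titled GFP+, a difference of 5.48 ± 0.23 (adjusted p = 8.5e-11), with 2 of 4 titled GFP+ arrays above background. Olfr101 read 11.25, 12.67, 12.05 and 12.05 against 7.38, 8.43, 7.77 and 8.11, a difference of 4.08 ± 0.38 (adjusted p = 7.2e-07). In neither receptor did the fractions overlap.

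At the other end, Olfr99 read 4.81, 4.90, 5.68 and 5.92 in titled GFP− and 13.07, 13.50, 13.45 and 13.65 in titled GFP+, at least 72.4-fold higher there (adjusted p = 2.3e-10). Olfr116 read 7.75, 8.68, 9.47 and 9.38 against 12.62, 13.45, 13.84 and 13.86, which is 24.7-fold (adjusted p = 8.4e-07). For both, replicate 1 gave the lowest signal of the titled GFP+ arrays. Olfr126 was at least 5.67-fold higher in titled GFP+ (adjusted p = 5.9e-05), where replicate 1 read 8.09 and the others 10.02, 10.02 and 10.83. Olfr114, below background on all titled GFP− arrays and above it on 3 of 4 titled GFP+ arrays, was at least 1.98-fold higher in the latter (adjusted p = 0.00075).

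Other differences of the odor pools were of the same order as in vehicle. Olfr125 was 2.46 ± 0.29 higher in titled GFP−, Olfr112 was 2.39 ± 0.30 higher, Olfr138 was 2.06 ± 0.26 higher, Olfr124 was 1.99 ± 0.35 higher and Olfr131 was 1.59 ± 0.32 higher (adjusted p up to 0.002). Olfr90, below background on all titled GFP+ arrays here, was at least 2.41-fold higher (adjusted p = 0.00041). Olfr117 and Olfr55 each differed by −1.84, with SE of 0.22 and 0.21 (adjusted p = 1.1e-05 and 7.9e-06). Olfr111 was at least 1.93-fold higher in titled GFP+ (adjusted p = 0.003), and Olfr761 differed by −1.43 ± 0.19 (adjusted p = 5e-05) although no array of either fraction exceeded background.

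Across the 48 members the vehicle and odor differences had a Pearson r of 0.989, and of 0.981 without the 2 largest, as a description over genes that share arrays within each treatment. Both differences had the same sign in 45 members; the exceptions, Olfr107, Olfr108 and Olfr120, did not pass in either. Of the calls, 25 were shared, 15 higher and 10 lower and all of the same sign, which is 92.6% of the vehicle calls and 96.2% of the odor calls. Olfr129 and Olfr134 passed in vehicle only and Olfr137 in odor only, and 20 members passed in neither. The gap between both differences had a median of 0.20 and was at most 0.75 log2 units. The Olfr137 call (−1.09 ± 0.36, adjusted p = 0.040) was lost without odor replicate 1 (adjusted p = 0.13), replicate 2 (0.0669) or replicate 3 (−0.65, 0.266), without vehicle replicate 1 (0.0557) or replicate 2 (0.057), and with the pool as a block (0.0783). It was also lost with quantile normalization repeated (−0.91, adjusted p = 0.0753) and with each array centred on its tested-feature median (−0.79, adjusted p = 0.0643).

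Among other odor calls, Olfr98 (−1.36 ± 0.45, adjusted p = 0.040) lost its call without odor replicate 2 (adjusted p = 0.178), replicate 3 (0.113) or replicate 4 (0.0581) and without vehicle replicate 2 (0.0549), as well as with each array centred on its tested-feature median (−1.05, adjusted p = 0.0521). Olfr103 (1.46 ± 0.45, adjusted p = 0.029) lost it without odor replicate 1 (0.84, adjusted p = 0.131) or replicate 2 (0.0574), Olfr113 (1.26 ± 0.31) without odor replicate 4 (0.0521), and Olfr128 (−1.19 ± 0.32) without odor replicate 2 (0.0675) or replicate 4 (0.097). Olfr93 (0.80 ± 0.25, adjusted p = 0.032) lost it without odor replicate 1 (0.214), replicate 2 (0.075) or replicate 4 (0.0639) and with the pool as a block (0.0614). With arrays centred on the receptor median, the odor calls of Olfr92 (0.30, adjusted p = 0.463), Olfr93 (0.33, 0.538), Olfr103 (0.99, 0.112) and Olfr113 (0.80, 0.113) were lost. With the pool block, which compares the fractions within each pool, Olfr96, Olfr115, Olfr130, Olfr132, Olfr133 and Olfr135 were called in odor pools besides, and Olfr130 in vehicle pools.

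**Figure D4:**
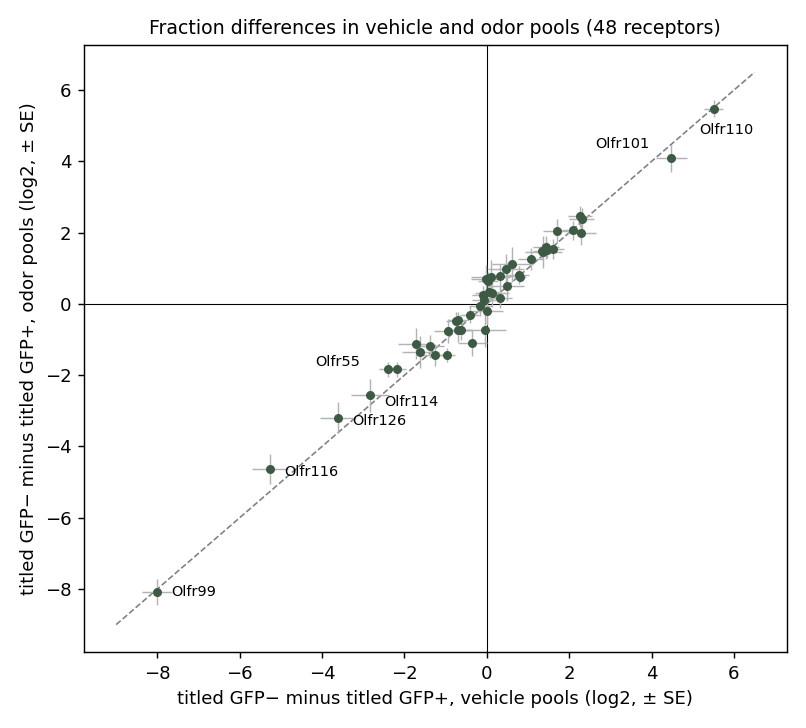
Fraction difference in odor pools against that in vehicle pools for the 48 receptors (log2 signal ± SE; dashed line, equal values). The points lie along the line of equality, with Olfr99 and Olfr116 at the lower end and Olfr110 and Olfr101 at the upper end.

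Whether odor moved a receptor between fractions was asked by the interaction, the odor fraction difference minus the vehicle one. No member passed by limma, as was the case for all 19572 features (0.0% called); at an unadjusted p under 0.05 there were 0 members, 18 of 1080 receptors and 739 features. The 95% intervals of the members had a median half-width of 0.94 log2 units (0.41 to 1.5) and reached from −2.18 to 2.07, and 14 of 48 lay within 1 unit of 0. These intervals are unadjusted, whereas a call required the adjusted test. Of all features, 110 had an interaction over 1 log2 unit in size, 55 of them receptors, with 0 called. Even changes above 1 log2 unit could thus go uncalled with 4 pools a treatment. The members with the smallest p were Olfr55 (0.57, interval −0.06 to 1.20), Olfr121 (0.62, −0.13 to 1.38) and Olfr761 (−0.47, −1.06 to 0.11), none of which passed (adjusted p = 1.00 each). For Olfr99 and Olfr110 the interaction was −0.09 (−1.20 to 1.03) and −0.03 (−0.70 to 0.65).

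**Figure D5:**
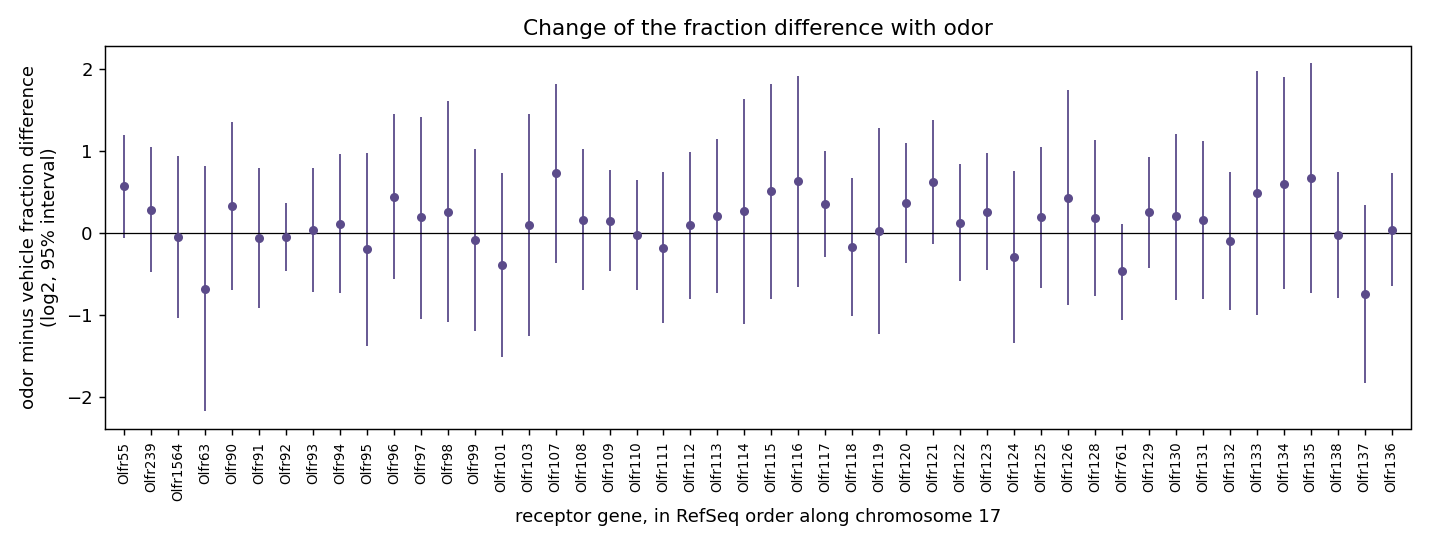
Interaction (odor minus vehicle fraction difference, log2) with its 95% interval for the 48 receptors in chromosome order. No member passed the adjusted test, the intervals reach from −2.18 to 2.07, and those of Olfr63, Olfr133 and Olfr135 are among the wide ones.

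Odor against vehicle within a titled fraction gave no call among the members or the 19572 features (0.0% called in each). In titled GFP−, 3 members, 26 receptors and 805 features had an unadjusted p under 0.05, and the member median was −0.05 (−0.01 with members at their bounds), between −0.14 without vehicle replicate 3 and 0.01 without vehicle replicate 4. These members were Olfr55 (0.55 ± 0.21), Olfr137 (−0.83 ± 0.36) and Olfr117 (0.47 ± 0.22), with an adjusted p of 1.00 each. Olfr55 read 13.52, 13.13, 12.69 and 13.61 in vehicle and 13.95, 13.28, 13.99 and 13.92 in odor arrays. The treatment groups of Olfr55 overlapped through odor replicate 2.

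In titled GFP+, 3 members, 55 receptors and 2016 features had an unadjusted p under 0.05. The 3 were Olfr134 (−1.01 ± 0.43, adjusted p = 0.44), Olfr123 (−0.52 ± 0.24, adjusted p = 0.48) and Olfr761 (0.41 ± 0.19, adjusted p = 0.48), the last below background throughout. The member median was −0.22, equal to that of all receptors (−0.22) and −0.19 with members at their bounds, with 38 of 48 below 0. Without odor replicate 1, whose titled GFP+ array had the low member median, it was −0.02, and with arrays centred on the receptor median it was 0.04. The median interaction of 0.16 became −0.02 without odor replicate 1, 0.01 without vehicle replicate 3 and −0.04 with arrays centred on the receptor median, so neither median kept its sign under all settings.

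The fractions also differed in genes of other cell types, in the same comparisons that separated the receptors. All 11 neutrophil markers and all 14 other leukocyte markers measured, such as Lyz2, were lower in titled GFP− in both treatments. Of the latter, C1qc in vehicle pools and C1qa, C1qb and C1qc in odor pools were below background on every array of both fractions. The summed neutrophil signal was 8.81 to 9.30 log2 units in titled GFP− and 18.51 to 19.79 in titled GFP+ of vehicle pools. In vehicle pools 11 of the 11 were below background on every titled GFP− array, and in odor pools 10, all but Ngp. All 8 microvillar cell markers were lower as well and below background on the vehicle titled GFP− arrays, and 5 of 9 sustentacular markers were lower in vehicle pools and 6 of 9 in odor pools. The microvillar markers Sh2d6, Il25 and Chat were also below background on every vehicle titled GFP+ array. The part of these other cells in the receptor differences was not tested.

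Some markers of OSN stage differed too. Of 11 immature OSN markers, 7 were lower in titled GFP− in both treatments, among them Gng8, a G protein subunit of immature neurons (−4.60 ± 0.22 in vehicle), and Gap43, a growth cone protein (−2.72 ± 0.31). Gng8 and Ablim1, another of the 7, were below background on every titled GFP− array. The size of the Gng8 difference is therefore set against signals below background. Of 14 mature OSN markers, 3 were higher in vehicle and 4 in odor pools, where 7.05% and 12.2% of all features were higher. Pde1c was the largest (0.57 ± 0.10 in vehicle). The other mature markers, Omp among them, were not called. Of 7 activity-dependent OSN genes, 6 were higher in both treatments, such as Lrrc3b (1.88 ± 0.38 in vehicle) and Pcp4l1 (1.67 ± 0.22). The summed signal of the immature list was 16.73 to 16.88 in titled GFP− and 17.07 to 17.35 in titled GFP+ vehicle arrays; its part in the receptor differences was not tested.

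The genes that carry the receptor's signal or bring it to the membrane were counted next. For reference, 16.9% of all features were called in vehicle pools and 22.2% in odor pools. The counts of these lists were not tested against those shares. Of 19 measured trafficking and transduction genes, 3 were higher (Pde1c, a phosphodiesterase of cilia, Pde4a and Ano2, a calcium-gated chloride channel) and 1 lower in vehicle pools. The lower one was Grk3, a receptor kinase (−1.06 ± 0.22, adjusted p = 0.0029), below background on all arrays. In odor pools 4 were higher and 2 lower, again with Pde1c (0.71 ± 0.10) and Grk3 (−1.19 ± 0.22), and Camk1d (−0.91 ± 0.16), also below background on all arrays. Of 19 features of 18 regulators of receptor choice, Lbr, a nuclear envelope protein that OSNs lose as they mature, was lower in both treatments (−1.67 ± 0.32 and −1.77 ± 0.32). Tshz1 was lower in vehicle pools (−0.60 ± 0.18) and Adcy3 higher in odor pools (0.30 ± 0.10). None of these lists had a gene called in the interaction or for odor within a fraction.

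The non-receptor genes among the members in gene order included 178 features. In vehicle pools 8 were higher and 33 lower in titled GFP−, where 7.05% of all features were higher and 9.82% lower. In odor pools 15 were higher and 28 lower, where 12.2% of all features were higher and 9.98% lower. Of the 35 H2 features among these neighbours, 2 were higher and 17 lower in vehicle pools and 2 and 14 in odor pools. In vehicle pools 27 of the 35 were below background on every titled GFP− array, and 22 on every titled GFP+ array. H2-K1, a classical class I gene, was measured in every array and was 12.9-fold higher in titled GFP+ (adjusted p = 1.4e-06). H2-Aa, a class II gene of antigen-presenting cells, was below background in titled GFP− and at least 13.4-fold higher (adjusted p = 1.3e-07), and H2-Ab1, above it on 1 array, differed by −4.76 (adjusted p = 6.1e-07). Ier3, an immediate-early gene, was at least 13.2-fold higher in titled GFP+ (adjusted p = 2.7e-07). H2-Aa, H2-Ab1 and H2-Eb1 are also on the list of leukocyte markers that were lower throughout.

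Among the other neighbours named by size, H2-D1 and H2-Eb1 were at least 3.78- and 4.27-fold higher in titled GFP+ of vehicle pools, Myo1f at least 3.61-fold, and Ppp1r18 and Tnf were above background there on 3 and 2 of 4 arrays only. Aif1 was below background in both fractions. Inside the 44-gene block, Ubd (0.59 ± 0.19) and H2-M3 (−1.46 ± 0.25) passed in vehicle pools, with all arrays below background. Thus the called H2 neighbours were mostly lower, whereas the receptors beside them were called in both directions. Many H2 features were below background in both fractions.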

How the data were processed

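Expression was measured on 16 Clariom S arrays. The deposited values were used as log2 signals, a unit read from their range; they came from Affymetrix Expression Console, as the submitters' processing notes record, and its normalization is not given in the sources used here. Of 28846 entries, 19572 with 1 gene symbol were tested. Array titles set the groups. A limma 3.58.1 cell-means model (R 4.3.3) over the 4 groups gave moderated two-sided tests, SE and 95% intervals, with Benjamini-Hochberg adjustment over all 19572 features at 0.05. Folds against a group below background on all arrays are bounds from the array background. SD values are over 4 arrays, and their number limits the precision.

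Members and lists were chosen with earlier results of these data known. The rule named the 8 highest and 8 lowest called members of each fraction comparison, the 3 smallest p elsewhere, and the 10 largest called neighbours. Its part on protein identity was not applied, since no protein sequences were used here. Promoter windows and gene order came from RefSeq (GRCm38.p6); the build behind the values is not given in the sources used here. Fractions of a pool come from the same animals (deviations correlated at 0.0957 to 0.337), and equal replicate numbers across treatments correlated at 0.1465 to 0.5471, over 0.1 in all 8 pairs, so both blocks were fitted as alternatives. Others were the scale between arrays, a background filter, trend with robust variances, the negative control background and each pool left out. The scripts were tested on simulated data.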

Additional observations from a re-analysis of the deposited data

Results flagged for a closer look

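Of 88 sets of 4 arrays, from the 22 receptors named by the rule, 3 held an array that Dixon's criterion for 4 values sets apart; chance alone marks about 1 in 20. Olfr55 read 13.28 on odor titled GFP− replicate 2 and 13.92 to 13.99 on the others. Olfr91 read 6.36 on vehicle titled GFP+ replicate 1 and 7.55 to 7.78 on the others. Olfr123 read 7.40 on vehicle titled GFP− replicate 4 and 8.31 to 8.48 on the others. Each array belongs to a different pool.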

How the results depend on the processing

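The counts of called members stayed within 1.5 times under every alternative run, and no called member changed sign. In vehicle pools, leaving out 1 pool at a time gave 12 to 15 higher and 9 to 14 lower members; in odor pools it gave 13 to 16 and 8 to 12. The interaction and both odor comparisons gave 0 calls under all of them, the negative control background excepted, which bears on levels only. Of the calls, 18 of 27 in vehicle and 19 of 26 in odor pools held under every alternative that tested them, and the others are named above. The background filter required a signal above background on 4 or more arrays and tested 45 members. It left out Olfr128 and Olfr761, so their calls were not tested under it. With the pool as a replicate block, 14 were higher and 12 lower in vehicle and 18 and 12 in odor pools; it changed no other call than those given above. With the replicate number as a replicate block, odor against vehicle gave 0 calls in either fraction. Limits: the scale between arrays is as deposited, and 17 members were on no array above the negative controls. Odor effects under about 1 log2 unit, and larger ones too, could go uncalled by the adjusted test.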
